A study of Mus musculus with 6 samples.

Results

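The genes described here encode the subunits of potassium channels, voltage-gated calcium channels and HCN channels, the hyperpolarization-activated cation channels. They were taken by symbol: every gene whose single annotated symbol begins with Kcn, Cacn or Hcn followed by a letter or digit, without Kcnj13, Kcne2 and Kcnj8. This gave 107 of the 18193 named genes on the array, with 81 Kcn, 24 Cacn and 2 Hcn symbols. Where a gene had several probe sets, the brightest of them over the 6 arrays stood for it. Of the 107, 71 had a mean log2 level of at least 4 and were tested, and 36 lay below it. The symbols also took in 3 noncoding transcripts (Kcnq1ot1, Kcnmb4os1 and Kcnmb4os2), which are no channel subunits.

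RNA was measured in dissected amygdala of 6 male mice of the inbred strain 129S1/SvImJ (S1), aged 8 to 10 weeks. All 6 had undergone fear extinction training and were killed 2 h later. Of these, 3 had a control diet (replicates 1, 9 and 11 in the labels) and 3 a diet labelled Zn or ZnR (replicates 3, 7 and 10), called the zinc diet here because the labels used do not state its zinc content. Each mouse gave 1 Affymetrix Mouse430_2 array. No mouse without extinction training was in the series, so the comparison is between diets after training only. Array medians lay between 4.04 and 4.09 and pairwise correlations between 0.991 and 0.996. Markers of amygdala neurons were present: 9 of 9 excitatory and 9 of 9 interneuron marker genes with a probe set passed the level filter.

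Potassium channels set the resting potential of a neuron, shape the action potential and limit repetitive firing. Kv channels open on depolarisation, inward rectifiers (Kcnj) and two-pore-domain channels (Kcnk) carry current near rest, and others open with intracellular calcium or sodium. Voltage-gated calcium channels let calcium in at synapses and dendrites, and HCN channels give a depolarising current near rest. In the amygdala the balance of these currents determines how readily principal cells and interneurons fire. Most pore subunits work with auxiliary subunits that alter their gating or surface number.

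In the zinc diet mice 5 of the 7 Kv1 pore genes were higher at an unadjusted p of 0.05 (Kcna1, Kcna2, Kcna4, Kcna5 and Kcna6). So were the Kv1 beta subunit Kcnab1, the A-type subunit Kcnd2, and the calcium channel auxiliary subunits Cacna2d2, Cacna2d3 and Cacnb4. Cacng5 was also higher and belongs to the gamma genes, several of which encode AMPA receptor auxiliary proteins. The pore subunits of the calcium channels (Cacna1), the inward rectifiers and both HCN genes had no member past an unadjusted p of 0.05. The differences were small: the 15 higher genes past that p were between 1.13-fold and 1.51-fold higher. None of the 71 passed the threshold of 0.05 after Benjamini-Hochberg adjustment over all 22877 probe sets in limma (0 of all named genes tested, or 0%, passed it), and the smallest adjusted p among them was 0.36. The statements below therefore rest on values, on an unadjusted limma p and on whether the diets overlapped, and none is a call after adjustment.

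An unadjusted limma p under 0.05 was reached by 17 of the 71 channel genes, or 23.9%, against 7.04% of the 11221 named genes tested. Of the 17, 15 were higher in the zinc diet mice (21.1% of the 71, against 4.36% of all named genes) and 2 were lower (2.82% against 2.68%). The diets did not overlap in 19 channel genes (26.8% against 13.7%), with the zinc diet above in 14 (19.7% against 8.12%) and below in 5 (7.04% against 5.55%). The median log2 change of the 71 was 0.048, beside 0.012 for all named genes, and 48 of the 71, or 67.6%, had a change above 0, beside 54.5%. The share of lower channel genes was therefore near that of all genes, whereas the share of higher ones was larger. Leaving out zinc diet replicate 7 reduced the 17 to 7 (9.86% against 3.81% of all named genes), all 7 of which were among the 17.

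**Figure D1:**
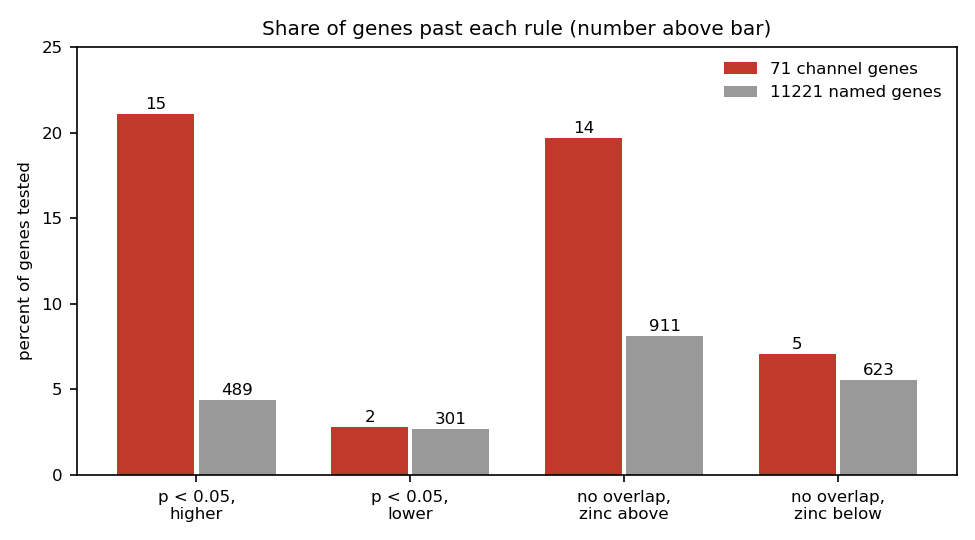
Percent of genes past each rule among the 71 channel genes (red) and the 11221 named genes tested (grey), with the number of genes above each bar; p is the unadjusted limma p. The red bars for higher levels in the zinc diet stand at 21.1% and 19.7% and the grey ones at 4.36% and 8.12%, while the bars for lower levels are close to each other.

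Several transcripts used as markers of medium spiny neurons, the main cell type of the striatum, were also higher in the zinc diet mice. All 11 tested markers of 14 listed had all 3 zinc diet mice above all 3 control mice. Their summed log2 level was 100.8 to 104.6 in zinc diet mice and 87.2 to 91.0 in control mice, and the lowest defining marker in control mice was Drd2 at 4.17. Of the 15 higher channel genes, 11 were highest in zinc diet replicate 7, the mouse in which the mean of these markers was also highest, at 9.51 against 9.17 and 9.19 in the other 2 zinc diet mice. Because the 15 were picked as higher under the zinc diet, their highest mouse was likely to be a zinc diet mouse. The share of all higher named genes that were highest in replicate 7 was not counted, so no link to these markers can be read from the 11. The sums of the 4 tested of 5 intercalated cell markers were 41.5 to 42.2 in zinc diet mice and 39.3 to 40.0 in control mice. Drd1, Foxp2 and Meis2 were the 3 that passed an unadjusted p of 0.05, Drd1 being in the medium spiny list as well, while Tshz1 overlapped between the diets (0.13 ± 0.08 SE) and Oprm1 was below the filter. The sums of 8 oligodendrocyte markers overlapped, at 74.9 to 79.8 in control and 78.7 to 84.2 in zinc diet mice, again highest in replicate 7. All 8 had a positive change, with a median of 0.41, beside 54.5% of all named genes with a positive change. Of the 8, Ermn (0.55) passed an unadjusted p of 0.05, and Mal (0.44) did not overlap between the diets. The part of these markers in the channel results was not tested, and in dissected tissue more cells of a type and more RNA per cell cannot be told apart. The sums of the 9 excitatory neuron markers overlapped, at 85.1 to 85.4 in control and 85.1 to 87.0 in zinc diet mice, but 5 of the 9 passed an unadjusted p of 0.05 in opposite directions. Neurod6 (0.67), Rspo2 (0.77) and Tbr1 (0.41) were higher, and Lmo3 (-0.43) and Neurod1 (-0.36) were lower. Camk2a (-0.17) did not pass, but all zinc diet mice were below the control mice. For the remaining lists, the sums overlapped between the diets for interneuron, astrocyte, oligodendrocyte precursor, microglia, endothelial, choroid plexus and hypothalamic or thalamic markers. Of these lists, Rarres2 (-0.40, choroid plexus) and Vwf (0.57, endothelial) passed an unadjusted p of 0.05. Without passing, Pvalb (0.74), Pdgfrb (0.30), Pdgfra (-0.15), Cspg4 (-0.13) and Aif1 (-0.08) did not overlap between the diets. Hypothalamic Pmch was at 9.004 in zinc diet replicate 7 and at most 4.01 in the others, and Avp ranged from 4.38 to 10.96. The choroid plexus mean was 8.57 in control replicate 9 and at most 6.30 in the other mice.

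Kv1 channels open at low voltages in axons and dendrites and hold down excitability. Of the 7 Kcna genes, 6 were tested, all 6 had a positive change with a median of 0.27 (54.5% of all named genes had a positive change), and 5 were higher at an unadjusted p of 0.05, beside 4.36% of all named genes. Kcna5 had the largest change of all 71 genes. Its log2 levels were 7.14, 7.30 and 7.43 in control replicates 1, 9 and 11 and 7.82, 8.04 and 7.77 in zinc diet replicates 3, 7 and 10. The diets were separated by a gap wider than the spread within the control diet, with a change of 0.59 ± 0.11 (SE), or 1.51-fold (limma adjusted p = 0.39). Kcna1, an axonal Kv1 subunit, was at 10.88, 10.88 and 10.97 in control mice and at 11.09, 11.28 and 11.11 in zinc diet mice. Its change was 0.25 ± 0.08 (SE), and the diets overlapped on 2 further probe sets, at 0.15 and 0.17. Kcna6 was at 8.01, 7.79 and 8.03 in control mice and at 8.09, 8.25 and 8.35 in zinc diet mice, so that zinc diet replicate 3 was close to the highest control mouse.

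Kcna2, which joins Kcna1 in axonal channels, was at 10.74, 10.63 and 10.63 in control mice and at 10.83, 11.02 and 10.85 in zinc diet mice. Its second tested probe set gave 0.23 ± 0.09 (SE), beside 0.23 ± 0.08 for the first, and the diets did not overlap on either. Kcna4, an inactivating A-type Kv1 subunit, was at 7.88, 7.49 and 7.59 in control mice and at 7.85, 8.03 and 7.93 in zinc diet mice. Here control replicate 1 was within the zinc diet range, and the change of 0.28 ± 0.12 (SE) had an unadjusted p of 0.0496. Kcna7 was close to the level filter, with a change of 0.06 ± 0.11 (SE). Kcna3 lay below the filter and was not tested, with a change of -0.19 and overlapping diets. With each mouse left out in turn the median of the Kcna genes stayed between 0.21 and 0.31.

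The beta subunits (Kcnab) bind Kv1 channels in the cytosol and alter inactivation and trafficking. Kcnab1 was at 9.88, 10.07 and 9.99 in control mice and at 10.31, 10.51 and 10.50 in zinc diet mice. All zinc diet mice were above the control mice, with a change of 0.46 ± 0.09 (SE), or 1.38-fold (limma adjusted p = 0.42), and a second probe set gave 0.72 ± 0.22 with no overlap. Kcnab2 differed by 0.03 ± 0.09 and Kcnab3 by 0.24 ± 0.17 (SE). Kcnab3 was close to the level filter, with a mean of 4.33, and its diets overlapped. All 9 tested Kv1 pore and beta genes thus had a positive change (54.5% of all named genes did), those of Kcnab2 and Kcna7 being near 0. The Kcnab1 probe sets are of a design that can match several transcripts of the gene.

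**Figure D2:**
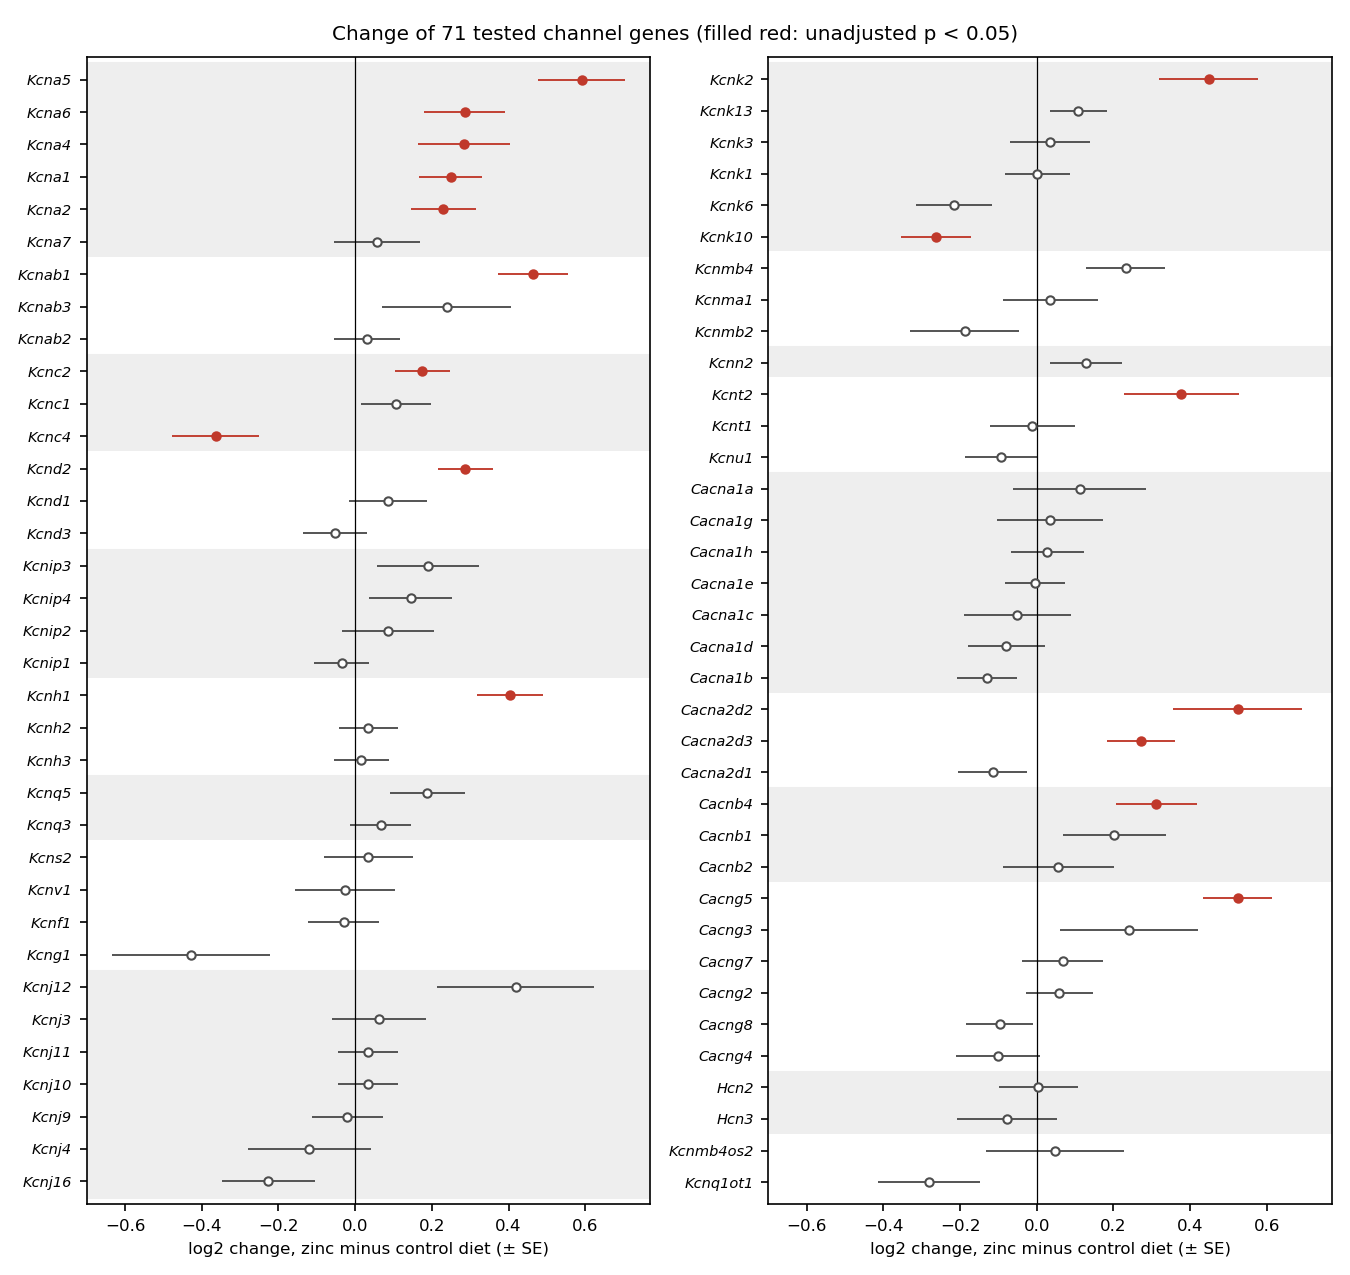
Log2 change (zinc minus control diet) of the 71 tested channel genes with the moderated SE, grouped in shaded blocks by subfamily from Kcna at the top left to HCN and noncoding transcripts at the bottom right; filled red points have an unadjusted limma p under 0.05. All 6 Kcna points lie to the right of 0, whereas the 7 Cacna1 points lie between -0.13 and 0.11.

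Kcna5, Kcna1 and Kcna6 are neighbours in the mouse genome, in this order, with no other protein-coding gene between them in RefSeq's annotation of GRCm38.p6, and all 3 were higher. The same was not seen for every neighbouring pair of channel genes. Cacng5 differed by 0.52 and its neighbour Cacng4 by -0.10, while Kcnj9 and Kcnj10, also adjacent, gave -0.02 and 0.03. The sequences below show what lies before the RefSeq starts of Kcna5 and Kcna6, as the members of that cluster with an entry, and of Kcnd2 and Kcnh1, which were higher and lie elsewhere. Each is the 250 bases before the start in GRCm38.p6, 5′ to 3′ on the gene's strand, with matches to the motifs named below in capitals. Kcna5 is at chr6:126535556-126535805 on the minus strand, Kcna6 at chr6:126740675-126740924 on the minus strand, Kcnd2 at chr6:21215096-21215345 on the plus strand, and Kcnh1 at chr1:192190527-192190776 on the plus strand.
Kcna5: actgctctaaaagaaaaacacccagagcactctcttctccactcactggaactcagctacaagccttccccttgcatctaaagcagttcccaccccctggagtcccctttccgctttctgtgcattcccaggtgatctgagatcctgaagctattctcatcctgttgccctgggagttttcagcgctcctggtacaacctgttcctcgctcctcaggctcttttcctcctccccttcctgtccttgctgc
Kcna6: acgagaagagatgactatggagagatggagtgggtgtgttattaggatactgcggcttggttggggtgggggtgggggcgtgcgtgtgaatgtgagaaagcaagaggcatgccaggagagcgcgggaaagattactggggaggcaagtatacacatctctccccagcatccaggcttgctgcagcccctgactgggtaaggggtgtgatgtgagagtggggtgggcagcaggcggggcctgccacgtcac
Kcnd2: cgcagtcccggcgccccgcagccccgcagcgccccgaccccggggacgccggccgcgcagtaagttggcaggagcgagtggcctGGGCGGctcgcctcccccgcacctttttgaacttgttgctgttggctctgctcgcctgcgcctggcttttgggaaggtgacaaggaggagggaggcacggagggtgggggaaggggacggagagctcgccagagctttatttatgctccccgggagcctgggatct
Kcnh1: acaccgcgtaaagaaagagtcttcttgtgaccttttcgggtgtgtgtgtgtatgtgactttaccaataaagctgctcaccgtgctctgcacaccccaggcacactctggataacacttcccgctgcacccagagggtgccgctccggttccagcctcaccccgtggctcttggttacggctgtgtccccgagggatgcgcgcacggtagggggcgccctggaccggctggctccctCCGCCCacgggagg

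Each 250-base window was searched on both strands for 6 motifs, none of which contains another. General promoter elements were the GC box, with the letters GGGCGG, and the TATA box, with the letters TATAAA. Elements of activity-regulated and helix-loop-helix factors were the cyclic AMP response element, with the letters TGACGTCA, and the E-box, with the letters CACGTG. Elements of developmental factors were the MEIS motif, with the letters TGACAG, and the forkhead motif, with the letters TGTTTAC. Kcnd2 and Kcnh1 each held 1 GC box, and the Kcna5 and Kcna6 windows held none of the 6 motifs. The GC content was 53.2% before Kcna5, 58.8% before Kcna6, 68.8% before Kcnd2 and 62% before Kcnh1, beside a median of 52.4% over all 32851 windows. Of the 17 genes past the unadjusted p, 16 had an entry, with 28 windows. GC boxes were in 42.9% of the 28, in 40% of the 80 windows that the 52 tested channel genes with an entry had together and in 32.7% of all windows. The MEIS motif was in 14.3% of the 28 and in 15.9% of all windows, and the E-box in 7.14% and 6.02%. TATA boxes, cyclic AMP response elements and the forkhead motif were in 0 of the 28, beside 12.4%, 1.55% and 3.17% of all windows.

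Kv4 channels (Kcnd) carry the fast A-type current of dendrites, and KChIP proteins (Kcnip) are their calcium-binding partners. Kcnd2, the main dendritic Kv4 pore subunit of many forebrain neurons, was at 11.70, 11.69 and 11.74 in control mice and at 11.93, 12.03 and 12.03 in zinc diet mice. The spread within each diet was smaller than the gap between them, and the change was 0.29 ± 0.07 (SE), or 1.22-fold (limma adjusted p = 0.56). Its 2 other tested probe sets gave 0.32 and 0.40 with the diets overlapping. Kcnd1 (0.09 ± 0.10 SE) and Kcnd3 (-0.05 ± 0.08) did not pass, and a second probe set of Kcnd3 gave -0.36. None of the 4 Kcnip genes passed: the median change was 0.12, with Kcnip2 at 0.09 ± 0.12 (95% confidence interval -0.20 to 0.37) and Kcnip4 at 0.14 ± 0.11 (-0.11 to 0.40).

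Kv3 channels (Kcnc) repolarise fast-firing neurons, and their tested members went both ways. Kcnc2, found in many interneurons, was at 11.16, 11.28 and 11.21 in control mice and at 11.36, 11.42 and 11.41 in zinc diet mice, a change of 0.18 ± 0.07 (SE). Kcnc4 was at 8.00, 8.12 and 8.37 in control mice and at 7.84, 7.69 and 7.87 in zinc diet mice. It was lower in every zinc diet mouse, 1.29-fold in the mean, with a change of -0.36 ± 0.11 (SE, limma adjusted p = 0.70). Its second tested probe set gave only -0.13 ± 0.11 with overlapping diets, and the probe set that stands for the gene is of a design that can match related transcripts. Kcnc1 differed by 0.11 ± 0.09 (SE, 95% confidence interval -0.11 to 0.32).

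**Figure D3:**
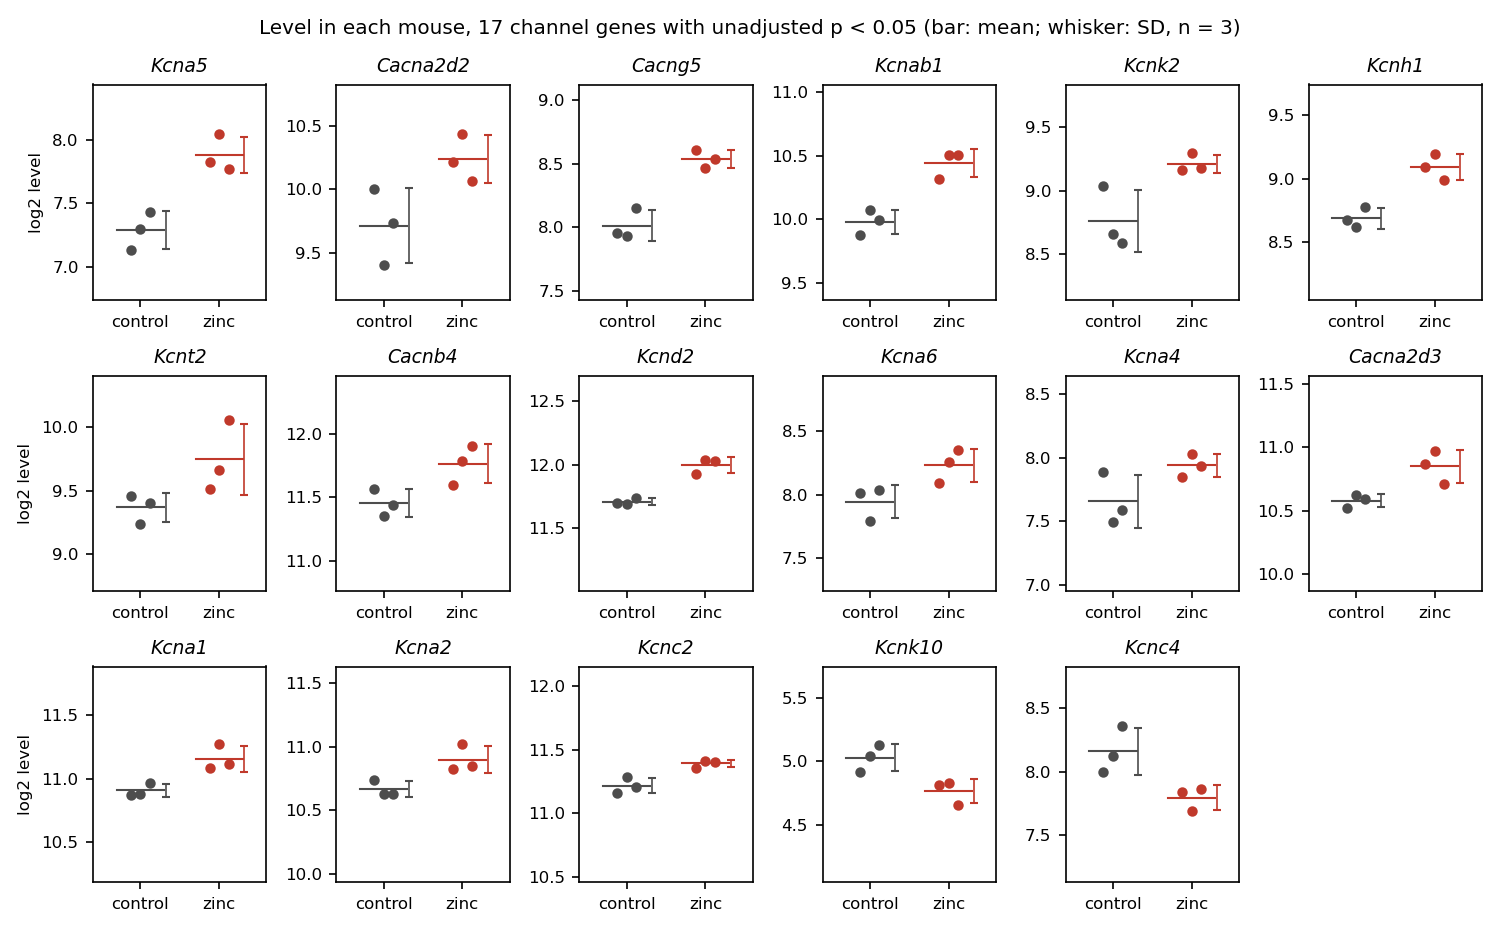
Log2 level in each mouse (points) for the 17 channel genes with an unadjusted limma p under 0.05, with the mean (horizontal bar) and SD (whisker, n = 3) per diet, ordered by change; every panel spans the same number of log2 units. The zinc diet points lie above all control points in 14 panels and below them for Kcnk10 and Kcnc4, and overlap them for Kcna4.

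Among the other voltage-gated potassium channels, Kcnh1, the EAG pore subunit, was at 8.68, 8.62 and 8.78 in control mice and at 9.10, 9.20 and 8.99 in zinc diet mice. All zinc diet mice were higher, with a change of 0.40 ± 0.09 (SE), or 1.32-fold (limma adjusted p = 0.46), and a second probe set gave 0.33 ± 0.33. The ERG subunit Kcnh2 differed by 0.03 ± 0.08 and the ELK subunit Kcnh3 by 0.02 ± 0.07 (SE). Kcnh5, the second EAG gene, lay just below the filter with a mean of 3.96 and was not tested. Its mean was 3.66 in control mice and 4.26 in zinc diet mice, and the diets overlapped. Just inside the filter were Kcna7 (mean 4.02) and Kcnj12 (4.18), and just outside it were Kcnh5 and Kcnn1 (3.89). The M-current subunits Kcnq3 (0.07 ± 0.08 SE) and Kcnq5 (0.19 ± 0.10) did not pass, but the probe sets of Kcnq5 differed. Its second tested probe set was at 6.85, 6.81 and 7.06 in control mice and at 7.37, 7.48 and 7.67 in zinc diet mice, a change of 0.60 ± 0.11 (SE) with no overlap.

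The electrically silent subunits (Kcnf, Kcng, Kcns and Kcnv) form no channel alone and modify Kv2 channels. Of 9 genes 4 were tested, none passed, and the median was -0.03. Kcng1 had the lowest change of all 71 genes, -0.43 ± 0.21 (SE), with 8.31, 8.42 and 8.93 in control mice and 7.94, 7.98 and 8.46 in zinc diet mice. The diets overlapped because zinc diet replicate 10 was above the control replicates 1 and 9. Kcnf1, Kcns2 and Kcnv1 lay between -0.03 and 0.03.

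Inward rectifiers and two-pore-domain channels carry resting potassium current. Of the 13 Kcnj genes 7 were tested and none passed (median change 0.03, range -0.23 to 0.42). Kcnj3, a subunit of G protein-gated channels, differed by 0.06 ± 0.12 (SE, 95% confidence interval -0.23 to 0.36), and Kcnj10, the astrocytic inward rectifier, by 0.03 ± 0.08 (-0.15 to 0.22). The highest value, 0.42 ± 0.21, belonged to Kcnj12, whose control levels of 4.09, 4.21 and 3.61 were around the filter. Of the 12 Kcnk genes 6 were tested. Kcnk2, the mechanosensitive and lipid-sensitive leak channel TREK, was at 9.04, 8.66 and 8.59 in control mice and at 9.16, 9.30 and 9.18 in zinc diet mice. Control replicate 1 was nearest to the zinc diet range, and the change was 0.45 ± 0.13 (SE), or 1.37-fold (limma adjusted p = 0.67). Its close relative Kcnk10 was at 4.92, 5.04 and 5.13 in control mice and at 4.81, 4.83 and 4.66 in zinc diet mice, a change of -0.26 ± 0.09 (SE) with no overlap. These 2 related genes therefore differed in direction, but Kcnk10 was at a low level (mean 4.90) and neither had a second tested probe set. Kcnk6 was also lower in every zinc diet mouse (-0.22 ± 0.10 SE) without reaching an unadjusted p of 0.05, and Kcnk1 differed by 0.00 ± 0.08 (95% confidence interval -0.20 to 0.20).

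Channels opened by calcium or sodium link firing history to potassium current. Kcnt2, the sodium-activated subunit Slick, was at 9.46, 9.24 and 9.41 in control mice and at 9.51, 9.66 and 10.06 in zinc diet mice. The change was 0.38 ± 0.15 (SE), and 0.22 without zinc diet replicate 10, the highest mouse. Its relative Kcnt1 differed by -0.01 ± 0.11 (SE), whereas its 2 other tested probe sets gave 0.20 and 0.21. The BK channel pore gene Kcnma1 differed by 0.04 ± 0.12 (SE, 95% confidence interval -0.26 to 0.33). Its 4 other tested probe sets ranged from -0.27 to 0.05, and 1 of them had the same sign. The neuronal BK beta subunit Kcnmb4 differed by 0.23 ± 0.10 (-0.01 to 0.48). Kcnn2, the 1 SK channel gene tested, differed by 0.13 ± 0.09 (-0.09 to 0.35).

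The calcium channel genes are given by role, pore subunits first. None of the 7 tested pore subunits (Cacna1) passed: the median was -0.0049 and the range -0.13 to 0.11. The P/Q-type gene Cacna1a differed by 0.11 ± 0.17 (SE, 95% confidence interval -0.30 to 0.52), the L-type genes Cacna1c and Cacna1d by -0.05 ± 0.14 (-0.38 to 0.28) and -0.08 ± 0.10 (-0.32 to 0.16), and the T-type gene Cacna1g by 0.04 ± 0.14 (-0.29 to 0.36). The N-type gene Cacna1b was lower in all 3 zinc diet mice, with a change of -0.13 ± 0.08 (SE), but its 3 other tested probe sets gave -0.04 to 0.03 with overlap. The 12 tested genes counted as auxiliary include 6 gamma genes, several of which encode AMPA receptor auxiliary proteins. Of the 12, 9 had a positive change (54.5% of all named genes did), and the range was -0.12 to 0.52 with a median of 0.13. An unadjusted p of 0.05 was passed by 4 of the 12, all higher, beside 4.36% of all named genes. The gamma gene Cacng5 was among the 4, and the other 8 did not pass. Pore and auxiliary genes were not tested against each other.

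The alpha2delta subunits (Cacna2d) carry calcium channels to the membrane of synapses. Cacna2d2 was at 10.00, 9.41 and 9.73 in control mice and at 10.21, 10.43 and 10.06 in zinc diet mice. The control mice were widely spread, and control replicate 1 nearly met zinc diet replicate 10. The change was 0.52 ± 0.17 (SE), or 1.44-fold (limma adjusted p = 0.71). Cacna2d3 was at 10.52, 10.62 and 10.59 in control mice and at 10.87, 10.97 and 10.71 in zinc diet mice, a change of 0.27 ± 0.09 (SE) with no overlap. Cacna2d1 differed by -0.12 ± 0.09 (SE, 95% confidence interval -0.33 to 0.10), and its 3 other tested probe sets ranged from -0.05 to 0.33.

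The beta subunits (Cacnb) bind the pore subunit in the cytosol. Cacnb4 was at 11.57, 11.35 and 11.44 in control mice and at 11.60, 11.79 and 11.91 in zinc diet mice. Control replicate 1 and zinc diet replicate 3 nearly met, and the change was 0.31 ± 0.11 (SE), or 1.24-fold (limma adjusted p = 0.72), with 0.26 and 0.34 on its other probe sets. Cacnb1 (0.20 ± 0.13 SE) and Cacnb2 (0.06 ± 0.14) did not pass.

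The gamma genes (Cacng) include auxiliary subunits of AMPA-type glutamate receptors. Cacng5 had the smallest p of all channel genes. It was at 7.96, 7.93 and 8.15 in control mice and at 8.61, 8.47 and 8.54 in zinc diet mice, with a gap between the diets wider than the spread within either. The change was 0.52 ± 0.09 (SE), or 1.44-fold (limma adjusted p = 0.36), and it stayed between 0.48 and 0.59 with any 1 mouse left out. Cacng2, the AMPA receptor partner stargazin, differed by 0.06 ± 0.09 (SE, 95% confidence interval -0.15 to 0.27), whereas its other tested probe sets gave 0.19 and 0.22 with all zinc diet mice above the control mice. The other 4 tested gamma genes lay between -0.10 and 0.24 and did not pass.

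HCN channels were represented by Hcn2 and Hcn3. Hcn2 was at 5.67, 5.96 and 5.88 in control mice and at 5.73, 5.91 and 5.88 in zinc diet mice. The diets overlapped, and the difference was 0.0046 ± 0.10 (SE, 95% confidence interval -0.24 to 0.25). Hcn3 differed by -0.08 ± 0.13 (SE). Of the noncoding transcripts, Kcnq1ot1, the antisense RNA of the imprinted Kcnq1 domain, was lower in every zinc diet mouse on the probe set that stands for it (-0.28 ± 0.13 SE), while its 4 other tested probe sets ranged from -0.25 to 0.06. Kcnmb4os2 differed by 0.05 ± 0.18 (SE).

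Agreement between probe sets was counted for the 17 genes. For 8 of them a further probe set was tested, 11 in all, and all 11 had the same sign as the probe set that stands for the gene. Of the 11, 3 (of Kcnab1, Kcna2 and Cacnb4) had an unadjusted p under 0.05 and no overlap of the diets. Probe sets of 1 gene share the RNA of the same 6 mice and are not independent replicates. With each mouse left out in turn, the sign of the change was kept in all 17 genes, and only Kcnt2 moved by over 1.5 times.

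**Figure D4:**
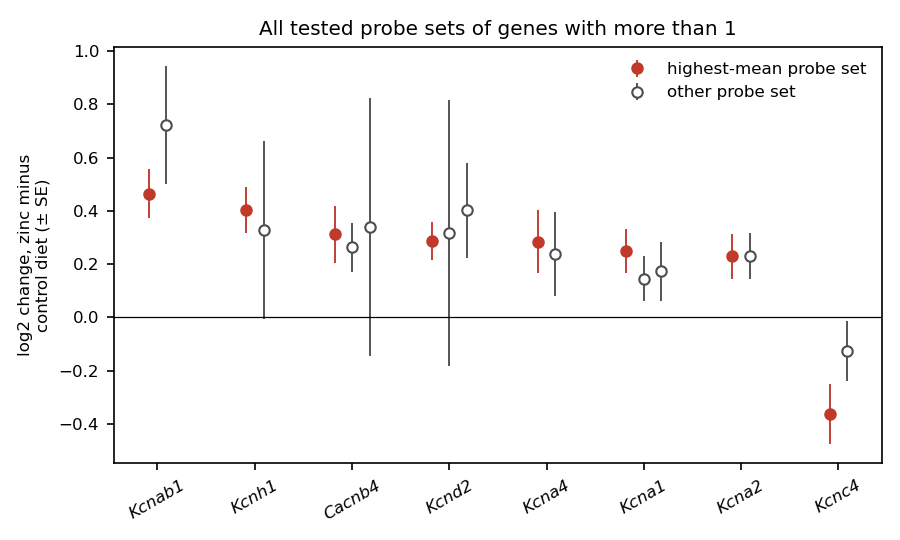
Log2 change (zinc minus control diet) with its SE for every tested probe set of the 8 genes that had an unadjusted limma p under 0.05 and more than 1 tested probe set; filled red points stand for the gene and open points are its other probe sets. Every point of a gene lies on the same side of 0, and the SEs of some open points of Kcnh1, Cacnb4 and Kcnd2 cross 0.

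**Figure D5:**
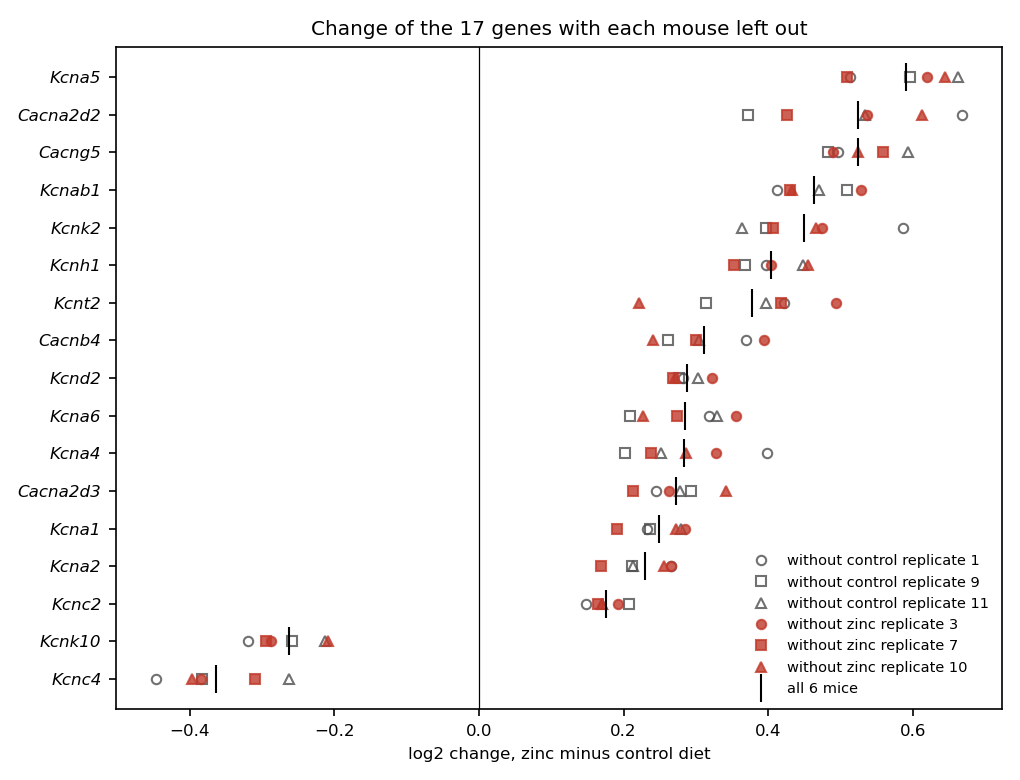
Log2 change (zinc minus control diet) of the 17 genes with all 6 mice (black tick) and with each mouse left out (open grey symbols for control, filled red for zinc diet mice). Every symbol of a gene lies on the same side of 0, and the symbol farthest from its tick in relative terms is that of Kcnt2 without zinc diet replicate 10, at 0.22.

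Other genes of neuronal excitability were taken from a list of channel partners and of sodium channels. Of the 25 tested partners, 2 passed an unadjusted p of 0.05, both higher, which is near the share of all named genes (7.04%), and the median change was 0.03. The 2 were Akap5, which anchors kinases and phosphatases to AMPA receptors and L-type channels (0.36 ± 0.13 SE), and Shisa9, an AMPA receptor auxiliary protein (0.31 ± 0.11). The Kv4 partners Dpp6 (0.03 ± 0.10 SE) and Dpp10 (-0.04 ± 0.07) and the HCN partner Pex5l (0.10 ± 0.11) did not pass. Of the 7 tested sodium channel genes, 1 passed, beside 7.04% of all named genes. It was the beta subunit gene Scn4b, which went from a control mean of 4.36, close to the filter, to 7.77. The pore genes Scn2a (0.0045 ± 0.09), Scn8a (0.03 ± 0.07) and Scn3a (-0.03 ± 0.08) did not pass, nor did Scn1a (0.25 ± 0.12 SE).

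No test was made of the 36 channel genes below the filter, with means from 1.70 to 3.96, where signal and background cannot be separated. Their changes ranged from -0.19 (Kcna3) to 0.60 (Kcnh5). The diets did not overlap in 3 of them, beside 13.7% of the named genes above the filter. All 4 Kcne genes, which encode single-span auxiliary subunits, were in this group, as were Kcnq1, Kcnn3 and Kcnj6.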

How the data were processed

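Amygdala RNA of 6 mice was measured on 1-colour Affymetrix arrays from 500 ng of RNA per mouse, per the labels' protocols. The authors deposited a single table of log2 probe set levels. The submitters' processing notes list R 2.15.1 and GCRMA 2.28.0 but not what each did. That the scale is log2 follows from their range, and filters, centring and further steps are not given in the sources used here. No raw signal was used, so no detection call was at hand, and GCRMA can compress or stretch differences at low levels. The number of arrays, 3 per diet, limits the precision. The labels do not describe the mice further. Each p-value sets the diet difference against the variation between arrays of the same diet, moderated over all probe sets tested. With 1 array per mouse, that variation holds animal, dissection and array differences together.

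Of 45101 probe sets, 64 controls were left out, and 22877 with a mean of at least 4 over the 6 arrays were fitted by lmFit and eBayes of limma 3.58.1 (R 4.3.3), with 1 term for diet, two-sided p-values and Benjamini-Hochberg adjustment over all 22877. Background shares use 1 probe set, that with the highest mean, for each of 11221 named genes. Symbols came from the platform annotation. Promoter sequences and gene order came from RefSeq tables of GRCm38.p6, which held 52 of the 71 tested channel genes. The fit was tested on simulated data.

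Genes named were those with an unadjusted p under 0.05 and no overlap of the diets (up to 15 each way), 21 named in advance, and up to 2 with the smallest p in a subfamily. Others named, such as the remaining members of small subfamilies and those near the filter, were picked with their values in view. Some genes are not reported here. The members, lists and this rule were chosen with earlier results of these data known. The 17 alternatives changed the filter (none, or a mean of at least 6), the scaling (quantile or median), eBayes (trend and robust), the weights of arrays, the probe sets per gene (1 before the fit, their mean, or the unique design only), the covariates (title number) or the floor (values under 4 set to 4), or left out each mouse.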

Additional observations from a re-analysis of the deposited data

How the results depend on the processing

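No channel gene passed the adjusted threshold under any of the 17 alternatives. The count at an unadjusted p of 0.05, 17 of 71, was 7 to 17 with 1 mouse left out (7 without zinc diet replicate 7) and 13 to 21 otherwise. The share of all named genes past that p moved too. It was 3.81% without zinc diet replicate 7, beside 9.86% of channel genes. Without control replicate 1, where the channel count was 17, it was 10.1%. With array weights, where the channel count was 21, it was 10.9%. The higher genes among the 17, 15, were 6 to 14 with 1 mouse left out. The lower ones, 2, were 1 to 4 with 1 mouse left out, 1 with a mean of at least 6, with trend and robust eBayes and with the unique design, and 4 with array weights and with the title number. Channel genes without overlap, 19, were 23 to 30 with 1 mouse left out, of which zinc diet above, 14, were 16 to 23 and below, 5, were 5 to 11 (3 with a mean of at least 6). Fewer mice make separation more frequent by construction. The median of all tested channel genes, 0.048, was 0.035 to 0.080 with 1 mouse left out. The median of all named genes, 0.012, lay between 0.00 and 0.03 under every alternative. Of the 17 genes, no sign reversed in any alternative that held them.

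Subfamily medians moved as follows, those of Kcnab by less under other settings than with 1 mouse left out. With no filter, Cacna2d was 0.13. With a mean of at least 6, which leaves fewer genes, Kcnh was 0.22, Kcnk 0.22, Kcnt-u 0.18 and noncoding transcripts -0.28. With array weights Kcnab was 0.35. With probe sets averaged per gene, Kcnma-Kcnmb was -0.11, Kcnq 0.25 and Kcnt-u 0.13. With the unique design, Kcnab was 0.13 and Kcnh 0.16. With 1 mouse left out, Kcnab was 0.087 to 0.42 and Cacna1 -0.10 to 0.023. Where probe sets were averaged, further probe sets of Kcnma1 (-0.27 to 0.05), Kcnq5 (0.60) and Kcnt1 (0.20 and 0.21) entered the Kcnma-Kcnmb, Kcnq and Kcnt-u medians. The cause of the other moves was not tested where fewer genes did not set them. No paired analysis was possible because the diets share no replicate number in the labels.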

Other observations

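The 3 channel genes left out by name were as follows. Kcnj13, a choroid plexus inward rectifier, was at 7.56 in control replicate 9 and at 2.94 to 3.45 in the other 5 mice. Kcne2 was at 6.01 in control replicate 9 and at 1.89 to 2.37 in the others. Kcnj8 had a mean of 4.62 in control and 4.44 in zinc diet mice, a change of -0.19 ± 0.19 (SE).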
